A study of Mus musculus with 4 samples.

Results

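The 10 genes followed here were chosen by name, as markers of regulatory T cells (Foxp3, Ikzf2, Ikzf4, Izumo1r and Nrp1), as the coreceptors that define the CD4 and CD8 lineages (Cd4, Cd8a and Cd8b1), and as the transcription factors that hold those lineages apart (Zbtb7b and Runx3). They were chosen with earlier results of these data known. All 10 were found among the 21146 genes of the deposited expression table. RNA sequencing had been done on T cells that infiltrated tumours of C57BL/6 mice, collected 21 days after the tumour was inoculated. There were 2 libraries from wild-type mice and 2 from mice labelled HPK1-/-, a knockout of Map4k1, which encodes a kinase that restrains T cell receptor signalling. The tumour, the gate, the allele, the sex and age of the mice, and whether a genotype's libraries stem from separate mice are not stated in the labels. The p-values therefore reflect nothing beyond the spread among these 4 libraries, which may be technical.

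Regulatory T cells are CD4 lineage cells that restrain other T cells, and they gather in many tumours. The forkhead factor FOXP3 sets and keeps their programme, together with partner proteins such as Helios (Ikzf2) and Eos (Ikzf4). CD4 binds MHC class II and CD8, a dimer of alpha and beta chains, binds MHC class I; ThPOK, the product of Zbtb7b, keeps cells in the CD4 lineage, whereas RUNX3 silences Cd4 in the CD8 lineage.

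Values were FPKM, a fragment count per kilobase of transcript relative to a library's mapped fragments. Column totals differed by genotype, at 975047 and 975107 in the wild-type pair, against 871584 and 878585 in the knockout. From the steps among low values, library scale was about 20200000 to 23250000 fragments. The targeted gene, Map4k1, was at 48.9 and 41.2 FPKM in the wild-type pair, against 20.6 and 26.5 FPKM in the libraries labelled knockout. It was lower in both, but transcript remained (log2 fold change -0.91, SE 0.15, limma adjusted p = 0.0134), and its adjusted p was 0.0634 without knockout replicate 1 and 0.0107 to 0.0764 over the 14 alternatives. Cd3e, a chain of the T cell receptor complex, was at 149 and 153 FPKM in the wild-type pair, against 148 and 142 FPKM in the knockout. Of 11947 tested genes, 28.4% passed an adjusted p of 0.05, with 13.0% lower and 15.4% higher in the knockout. With column totals set equal, the median log2 fold change of all genes moved up by 0.139 and 75.4% of calls were higher in place of 54.2%. Lower calls outnumbered higher ones when a knockout library was left out: 189 genes were higher and 390 lower without knockout replicate 1, and 378 higher and 567 lower without knockout replicate 2.

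Sequence just before the start site is shown for 4 of the genes, because Foxp3 and Izumo1r fell together while Cd8a and Runx3 did not pass the test. RefSeq windows on GRCm38.p6 matched 6 of the 10 genes by symbol (Foxp3, Izumo1r, Nrp1, Cd8a, Runx3 and Zbtb7b), with 9 windows of 300 bases in all. The 150 bases before a start site are printed 5′ to 3′ on the gene's strand. Capitals mark TATAAA or its complement, the RUNX word TGTGGT read on either strand, or the NFAT word GGAAAA read on either strand; none of these matches overlapped another.
Foxp3, chrX:7579526-7579675, plus strand: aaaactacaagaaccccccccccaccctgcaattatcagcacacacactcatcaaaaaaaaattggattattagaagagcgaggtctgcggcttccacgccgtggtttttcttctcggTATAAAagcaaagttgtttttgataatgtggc
Izumo1r, chr9:14903768-14903917, minus strand: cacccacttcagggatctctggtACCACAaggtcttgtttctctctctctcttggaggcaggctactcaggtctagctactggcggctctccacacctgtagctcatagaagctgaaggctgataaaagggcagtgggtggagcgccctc
Cd8a, chr6:71373277-71373426, plus strand: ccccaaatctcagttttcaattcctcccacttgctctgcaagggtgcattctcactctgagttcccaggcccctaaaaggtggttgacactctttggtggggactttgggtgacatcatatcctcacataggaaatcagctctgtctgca
Runx3, chr4:135120495-135120644, plus strand: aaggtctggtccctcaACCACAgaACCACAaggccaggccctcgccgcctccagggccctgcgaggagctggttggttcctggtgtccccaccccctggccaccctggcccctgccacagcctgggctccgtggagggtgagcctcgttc
The Foxp3 window held TATAAA starting at position -32 from the start site, a word found in 13.6% of 32851 mouse promoter windows. The RUNX word stood at -127 in Izumo1r and, as a close pair, at -134 and -126 in the Runx3 window shown. A second Runx3 window held no RUNX word, and a Zbtb7b window held it at -89. The RUNX word occurred in 3 of the 9 windows of these genes and in 16.8% of the 32851. GGAAAA was in 2 of the 9 windows, a second Foxp3 window and a Zbtb7b window, and in 23.4% of the 32851. The AP-1 word TGANTCA (7.81% of windows) and the forkhead word GTAAACA (3.65%), also read on both strands, were in 0 of the 9 windows. These matches describe letters in short windows and show no binding.

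Of the 5 regulatory T cell genes, Foxp3, Izumo1r and Nrp1 fell in the knockout libraries, and Ikzf2 and Ikzf4 did not pass the test. The coreceptor genes and both lineage factors did not pass either. In all, 3 of the 10 genes were called lower and 0 higher, beside 13.0% and 15.4% of tested genes. At an unadjusted limma p under 0.05, Zbtb7b was also lower and Cd8b1 higher. That looser level was passed by 5157 of the 11947 tested genes. Foxp3 and Nrp1 were under 1 FPKM in both knockout libraries, so they reached the filter through wild type alone, and the count is a description. In bulk RNA, fewer cells of a type and less RNA per cell cannot be told apart.

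**Figure D1:**
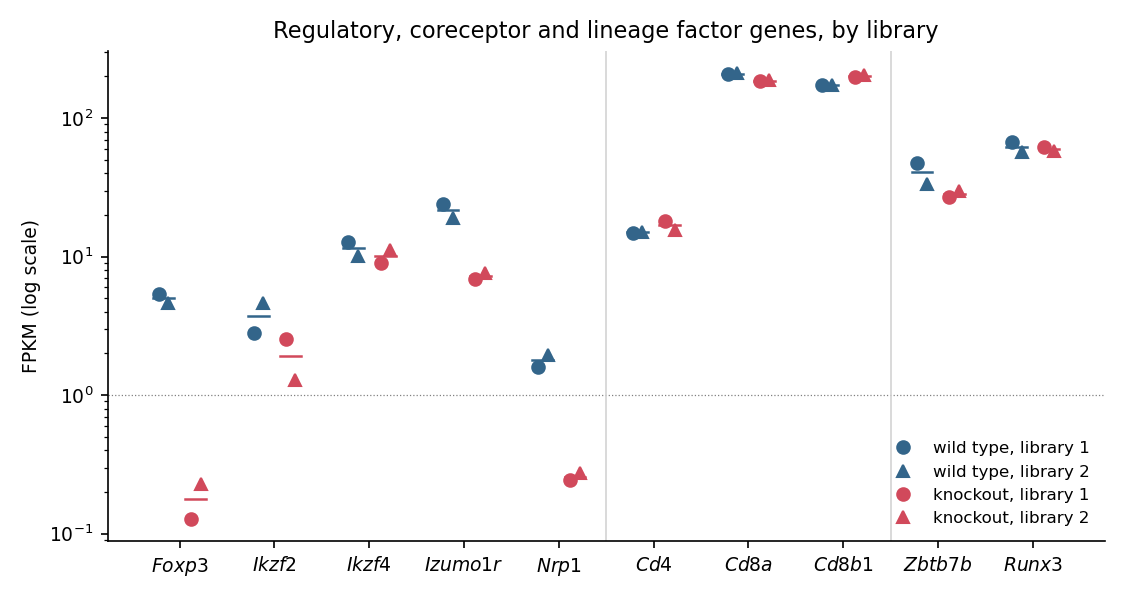
FPKM (log axis) of the 10 genes in each library, circles for the first and triangles for the second library of a genotype, with a line at the mean. Foxp3 lies between 4.65 and 5.40 in wild type and between 0.128 and 0.228 in the knockout, while Cd8a stays between 184 and 212 in the 4 libraries.

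Foxp3 (ENSMUSG00000039521, GRCm38 chromosome X, 7573644 to 7595245, plus strand, protein coding) stood at 5.40 and 4.65 FPKM in the wild-type pair, against 0.128 and 0.228 FPKM in the knockout. Both knockout libraries lay far below both wild-type libraries. The mean went from 5.02 ± 0.527 FPKM (SD, n = 2) to 0.178 ± 0.0707 FPKM, a 28.25-fold lower mean. On the log2(FPKM + 1) scale it fell by 2.35 (SE 0.15, 95% interval -2.74 to -1.97, limma adjusted p = 0.00171). That scale understates a change that ends near 0, and with a pseudocount of 0.1 the log2 fold change was -4.22. Of the tested genes, 51 (0.427%) had a fold change as low or lower, Foxp3 included. Because Foxp3 was tested through wild type alone, which favours a fall, this rank and the p-value are a description. On its longest annotated transcript the values correspond to about 416 and 336 fragments in wild type and about 10 and 19 in the knockout, so the knockout level is known only coarsely.

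Exons of Foxp3 share bases with other genes, and the library kit, NEBNext Ultra RNA, does not mark strand, so low Foxp3 values are uncertain. The shared bases were 12.9% of Foxp3 exon bases for Ccdc22 and 5.81% for Ppp1r3f, both on the opposite strand, 8.15% for the noncoding gene Gm36995, also on the opposite strand, and 18.6% for Flicr, a noncoding RNA of the locus on the same strand. Ccdc22 was at 7.02 and 7.11 FPKM in the wild-type pair, against 8.02 and 8.61 FPKM in the knockout. Flicr was at 0.887 and 0.672 FPKM in the wild-type pair, against 0.895 and 1.000 FPKM in the knockout, where it stood above Foxp3. Ppp1r3f was at 1.89 and 1.502 FPKM against 1.66 and 1.05 FPKM, and Gm36995 at 0.345 and 0.144 FPKM against 0.435 and 0.305 FPKM. For both of these the genotypes overlapped, while Ccdc22 and Flicr were higher in both knockout libraries.

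Izumo1r (ENSMUSG00000031933, chromosome 9, 14885814 to 14903949, minus strand) encodes folate receptor 4, a surface protein high on regulatory T cells and also present on other CD4 T cells. It was at 24.1 and 19.1 FPKM in the wild-type pair, against 6.94 and 7.60 FPKM in the knockout. The genotypes did not overlap, and the mean was 2.97-fold lower (21.6 ± 3.50 against 7.27 ± 0.468 FPKM). Its log2 value fell by 1.44 (SE 0.14, 95% interval -1.78 to -1.10, limma adjusted p = 0.00408), and unlike Foxp3 it stayed well above 1 FPKM.

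Nrp1 (ENSMUSG00000025810, chromosome 8, 128358604 to 128503363, plus strand) encodes neuropilin 1, a coreceptor for semaphorins and VEGF that marks thymus-derived regulatory T cells in the mouse and is also found on dendritic and endothelial cells. It was the lowest of the 10 genes by mean, at 1.60 and 1.96 FPKM in the wild-type pair, against 0.243 and 0.273 FPKM in the knockout. Both knockout libraries were below both wild-type libraries, with about 18 and 22 fragments in the knockout against 117 and 134 in wild type. Its log2 value fell by 1.14 (SE 0.17, 95% interval -1.56 to -0.72, limma adjusted p = 0.0103). This scale understates it as it does Foxp3: the mean FPKM was 6.90-fold lower, a larger fold than that of Izumo1r, and with a pseudocount of 0.1 the log2 fold change was -2.39, against -1.55 for Izumo1r. Leaving out knockout replicate 1 ended this call (adjusted p = 0.0604 with limma), and the range was 0.0071 to 0.0604 over the alternatives.

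Ikzf2 (ENSMUSG00000025997, chromosome 1, 69531214 to 69687245, minus strand) encodes Helios, a zinc finger factor of the Ikaros family found in most thymus-derived regulatory T cells and in some activated T cells. It was at 2.79 and 4.62 FPKM in the wild-type pair, against 2.53 and 1.30 FPKM in the knockout. The genotypes did not overlap, but the nearest libraries were close and the libraries of a genotype differed 1.66-fold and 1.95-fold. The log2 fold change was -0.70 (SE 0.29, 95% interval -1.42 to 0.02, limma adjusted p = 0.123). Leaving out 1 library moved the value between -1.01 (without knockout replicate 1) and -0.39 (without knockout replicate 2), with -0.98 without wild-type replicate 1 and -0.41 without wild-type replicate 2. The interval covers both no difference and a fall of more than 2-fold on that scale.

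Ikzf4 (ENSMUSG00000002578, chromosome 10, 128630843 to 128645991, minus strand) encodes Eos, a corepressor partner of FOXP3. It was at 12.8 and 10.2 FPKM in the wild-type pair, against 8.97 and 11.2 FPKM in the knockout, and the genotypes overlapped. The log2 fold change was -0.17 (SE 0.16, 95% interval -0.56 to 0.22, limma adjusted p = 0.443). In the knockout its level was far above that of Foxp3, and in wild type it was above Foxp3 by a smaller factor.

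**Figure D2:**
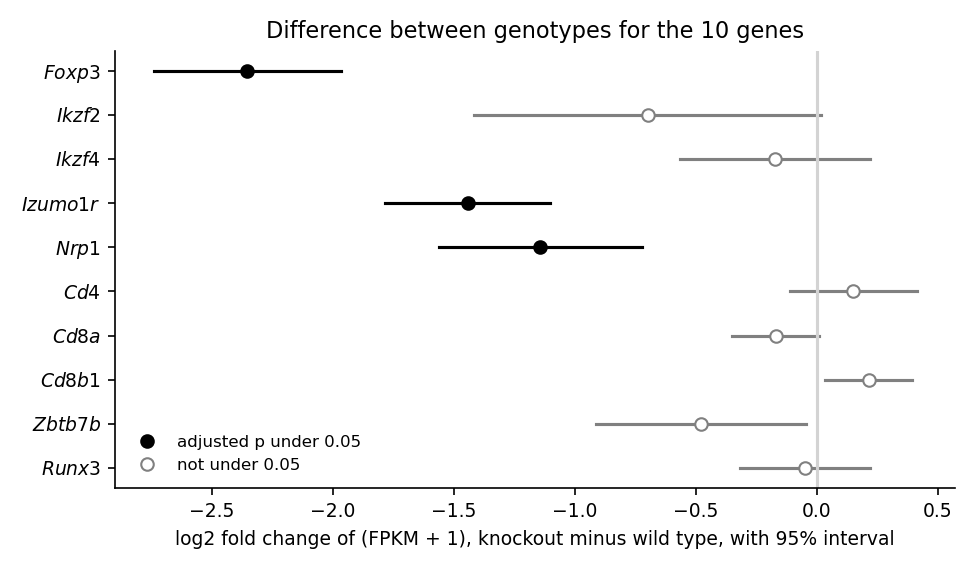
Log2 fold change of FPKM + 1, knockout minus wild type, with limma's 95% interval; filled points passed an adjusted p of 0.05. Foxp3, Izumo1r and Nrp1 lie left of 0 with intervals that end at -1.97, -1.10 and -0.72.

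Ikaros family genes outside the panel were also followed. Of the 5 family genes, Ikzf2 and Ikzf4 included, 2 rose and 0 fell, beside 15.4% and 13.0% of all tested genes. The other 3 did not pass, and the median log2 fold change was 0.14 against 0.04 for all tested genes. Ikzf1, which encodes Ikaros, rose from 79.8 and 71.9 to 116 and 106 FPKM (log2 fold change 0.54, SE 0.09, limma adjusted p = 0.0143). Ikzf3, which encodes Aiolos, rose from 33.2 and 37.5 to 48.7 and 51.8 FPKM (log2 fold change 0.50, limma adjusted p = 0.0193). Both calls were lost without either knockout library and without a filter on low values, with adjusted p up to 0.108 and 0.115 and as low as 0.0059 and 0.00706 over the alternatives. Ikzf5, which encodes Pegasus, was at 9.64 and 9.27 FPKM in the wild-type pair, against 10.1 and 10.9 FPKM in the knockout and did not pass.

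The coreceptor genes were at similar levels in both genotypes, and none of the 3 passed. Cd4 (ENSMUSG00000023274, chromosome 6, 124864692 to 124888221, minus strand) was at 14.9 and 15.1 FPKM in the wild-type pair, against 18.0 and 15.6 FPKM in the knockout. Both knockout libraries were slightly higher (log2 fold change 0.15, SE 0.10, 95% interval -0.11 to 0.41, limma adjusted p = 0.319). The interval does not reach a fall as deep as that of Foxp3, Izumo1r or Nrp1.

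Cd8a (ENSMUSG00000053977, chromosome 6, 71373427 to 71379173, plus strand), the alpha chain, was the most abundant of the 10 genes, at 208 and 212 FPKM in the wild-type pair, against 184 and 189 FPKM in the knockout. Cd8b1 (ENSMUSG00000053044, chromosome 6, 71322788 to 71337494, plus strand), the beta chain, lies 35933 bases before it on the same strand and was at 174 and 173 FPKM in the wild-type pair, against 198 and 204 FPKM in the knockout. The alpha chain was lower and the beta chain higher in both knockout libraries, each without overlap. The log2 fold change was -0.17 for Cd8a (SE 0.07, 95% interval -0.35 to 0.01, limma adjusted p = 0.13) and 0.21 for Cd8b1 (SE 0.07, 95% interval 0.04 to 0.39, limma adjusted p = 0.0756). With equal column totals Cd8b1 passed (log2 fold change 0.37, adjusted p = 0.0147, range 0.0147 to 0.367 over the alternatives) and Cd8a was at -0.01.

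Of the lineage factors, Zbtb7b (ENSMUSG00000028042, chromosome 3, 89377644 to 89394776, minus strand) was at 47.6 and 33.7 FPKM in the wild-type pair, against 27.1 and 30.0 FPKM in the knockout. The knockout libraries were both lower, but the wild-type libraries differed 1.41-fold from each other. The log2 fold change was -0.48 (SE 0.17, 95% interval -0.91 to -0.05, limma adjusted p = 0.0917). The value turned on which wild-type library was kept: it passed without wild-type replicate 2 (log2 fold change -0.72, adjusted p = 0.0202), and without wild-type replicate 1 it did not (log2 fold change -0.24, adjusted p = 0.162). Over the alternatives the adjusted p ran from 0.0202 to 0.303. Runx3 (ENSMUSG00000070691, chromosome 4, 135120652 to 135177990, plus strand) was at 67.3 and 56.6 FPKM in the wild-type pair, against 61.6 and 57.9 FPKM in the knockout, and the genotypes overlapped (log2 fold change -0.05, SE 0.11, 95% interval -0.32 to 0.22, limma adjusted p = 0.765). Its sign turned to 0.11 with equal column totals and to 0.074 without wild-type replicate 1.

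By mean FPKM over the 4 libraries, the order of levels was Cd8a, Cd8b1, Runx3, Zbtb7b, Cd4, Izumo1r, Ikzf4, Ikzf2, Foxp3 and Nrp1. No neighbours in this order overlapped within a genotype, but some stood the other way round in 1 genotype. In wild type both Izumo1r values were above both Cd4 values, and both Foxp3 values were above both Ikzf2 values, the nearest being 4.65 and 4.62 FPKM. In the knockout, Cd8b1 was above Cd8a, Ikzf4 above Izumo1r and Nrp1 above Foxp3 in both libraries. With 2 libraries a genotype, no test of these orders was made. Counted by overlap between genotypes, 6 of the 10 genes were lower and 2 higher in both knockout libraries, beside 31.4% and 38.6% of tested genes.

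Ratios between genes of the same library do not depend on how libraries are scaled, and they set the subset markers beside the coreceptors. They are given without a test, since 2 libraries against 2 allow no exact permutation p below 0.333. Foxp3 was 36.1% and 30.8% of the Cd4 level in wild type and 0.709% and 1.46% of it in the knockout. Izumo1r was 161% and 127% of Cd4 in wild type and 38.5% and 48.8% in the knockout. Nrp1 was 10.7% and 13.0% of Cd4 (10.73% in the first library), and 1.35% and 1.75% in the knockout. Each of these 3 ratios was lower in both knockout libraries, while Cd4 itself was not. Their numerators were the 3 genes already called lower and Cd4 was slightly higher, so these ratios had to fall. They are a description and no separate evidence on subset composition.

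Ikzf2 was 18.7% and 30.6% of Cd4 in wild type and 14.0% and 8.31% in the knockout, without overlap. Ikzf4 was 85.5% and 67.5% of Cd4 against 49.8% and 71.7%, with overlap. Cd4 was 7.19% and 7.13% of Cd8a in wild type and 9.81% and 8.26% in the knockout, higher in both. Cd8b1 was 83.7% and 81.7% of Cd8a in wild type and 108% in both knockout libraries, a ratio 1.31 times as high by the means. Ikzf2 and Cd8a were already lower, and Cd4 and Cd8b1 already higher, in both knockout libraries. The ratios of Ikzf2 to Cd4, and of Cd4 and Cd8b1 to Cd8a, therefore had to differ and are a description. Zbtb7b was 70.8% and 59.5% of Runx3 in wild type and 43.9% and 51.8% in the knockout, lower in both. FPKM of a gene with several transcripts also depends on how fragments were divided among them, and Cd8a has 3 annotated transcripts of 1950 to 3128 nt where Cd8b1 has 1 of 1483 nt.

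**Figure D3:**
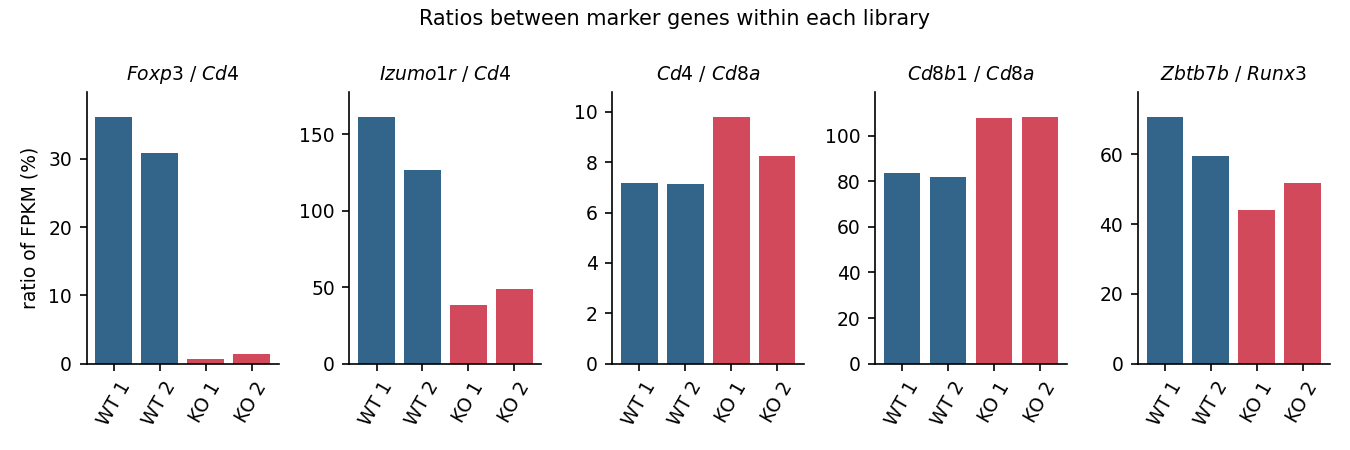
Ratio of FPKM (percent, bars from 0) between marker genes in each library, wild type in blue and knockout in red. Foxp3 to Cd4 drops from 36.1% and 30.8% to 0.709% and 1.46%, while Cd4 to Cd8a lies between 7.13% and 9.81%.

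Other genes known from regulatory T cells mostly fell, with exceptions. Of 28 listed genes, 24 were tested, and 15 fell, 3 rose and 6 did not pass, with a median log2 fold change of -0.70. These counts stand beside 13.0% lower and 15.4% higher over all tested genes. The list, like the other lists, was written with earlier results of these data known, so its counts are a description. Cd83, Gpr83 and Itgae, 3 of the 15, were under 1 FPKM in both knockout libraries and so were tested through wild type alone, where they had to differ; the count and the median include them. Many of the listed genes are also expressed by activated CD8 T cells. Cd83, an activation antigen, was at 4.97 and 5.80 FPKM among wild-type libraries but listed at 0 in both knockout libraries (limma adjusted p = 0.00113). Il10, a suppressive cytokine, fell from 18.5 and 18.1 to 3.99 and 3.16 FPKM (limma adjusted p = 0.00131). Capg, an actin-capping protein, fell from 265 and 227 to 86.9 and 97.2 FPKM, and the inhibitory receptor gene Tigit from 53.1 and 57.4 to 25.7 and 25.01 FPKM (limma adjusted p = 0.00253 for both).

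Ctla4, which restrains costimulation, fell from 41.9 and 48.9 to 19.8 and 19.1 FPKM (limma adjusted p = 0.00338), a smaller fold than that of Foxp3. Il2ra, the interleukin 2 receptor alpha chain, was at 273 and 301 FPKM in the wild-type pair, against 265 and 261 FPKM in the knockout and did not pass (limma adjusted p = 0.304). Gpr83, a receptor enriched in regulatory T cells, fell from 1.12 and 1.16 to 0.127 and 0.241 FPKM, and Itgb8, an integrin chain that activates TGF-beta, was at 0.138 and 0.0972 against 0.00544 and 0 FPKM, under the filter. The 3 genes that rose were Ikzf3, Satb1, a chromatin organiser, and Lrrc32, which encodes GARP, a surface anchor for latent TGF-beta on activated regulatory T cells. Lrrc32 went from 59.995 and 54.3 to 76.6 and 71.1 FPKM, opposite to Foxp3. Gpr83, Itgb8, Satb1 and Lrrc32 were picked from the list for mention after their values were seen.

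Genes that induce Foxp3 or bind its product changed in both directions. The median log2 fold change of the 24 tested was -0.01. Among them 6 fell and 4 rose, beside 13.0% and 15.4% of all tested genes, and 14 did not pass. Those that fell most were the nuclear receptors induced by receptor stimulation: Nr4a3 went from 15.99 and 15.5 to 3.02 and 3.25 FPKM, Nr4a2 from 6.82 and 7.12 to 0.999 and 1.35 FPKM, and Nr4a1 from 7.09 and 7.73 to 2.47 and 2.83 FPKM (limma adjusted p = 0.000785, 0.00244 and 0.00481). Gata3, the type 2 helper factor that also binds FOXP3, fell from 16.3 and 15.8 to 7.11 and 6.28 FPKM (limma adjusted p = 0.0037). Of 15 listed partners of neuropilin and relatives of the folate receptor, 7 were tested, with a median of 0.00. Of the 7, 1 fell and 1 rose, beside the same shares of all tested genes. Sema7a, a semaphorin of activated T cells, fell from 30.8 and 28.4 to 8.67 and 8.41 FPKM (limma adjusted p = 0.0010). Sema4a, a semaphorin that binds neuropilin 1 on regulatory T cells, rose from 100.4 and 89.2 to 132 and 129 FPKM (limma adjusted p = 0.0198), a call lost without either knockout library and without a filter (0.00706 to 0.135 over the alternatives).

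In the network that sets CD4 or CD8 fate, 3 of 20 tested genes fell and 4 rose, beside 13.0% and 15.4% of all tested genes. The other 13 did not pass, and the median log2 fold change was 0.10. Besides Gata3, Socs1, a cytokine signal inhibitor, fell from 185 and 151 to 102 in both knockout libraries (limma adjusted p = 0.0126). Dnmt1, the maintenance DNA methyltransferase, rose from 70.0 and 71.2 to 141 and 130 FPKM (limma adjusted p = 0.00318), and Tcf12, an E protein, from 27.6 and 23.3 to 49.1 and 40.7 FPKM (limma adjusted p = 0.0136). Leaving out knockout replicate 1 ended the calls of Socs1 and Tcf12, whose limma adjusted p became 0.0743 and 0.078, that of Socs1 also without knockout replicate 2, at 0.0624, and both without a filter. Over the alternatives their adjusted p ran from 0.00927 to 0.0743 and from 0.00658 to 0.078.

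Of 24 helper T cell markers, 14 were tested, and 5 fell, 1 rose and 8 did not pass, with a median log2 fold change of -0.45. Over all tested genes, 13.0% fell and 15.4% rose. The 5 falls were in genes of the type 2 subset (Gata3, Il4, Il5 and Il13) and a costimulatory receptor, Tnfrsf4. The 1 gene that rose was Maf, from 6.17 and 6.38 to 9.57 and 9.90 FPKM (limma adjusted p = 0.016). Ccr4 and Stat6 were among those that did not pass (limma adjusted p = 0.343 and 0.563). Of the 14, 4 were under 1 FPKM in both knockout libraries and were tested through wild type alone, which favours a fall: Il13, Il5, Cd40lg and Rora, of which Il13 and Il5 are among the 5. Il13 went from 65.2 and 67.5 to 0.613 and 0.638 FPKM, Il5 from 10.02 and 12.7 to 0.0697 and 0.0674 FPKM, and Tnfrsf4, which encodes OX40, from 46.5 and 48.7 to 25.6 and 23.6 FPKM (limma adjusted p = 2.93e-05, 0.000635 and 0.00395). Cd40lg, the helper ligand for B cells and dendritic cells, was at 1.35 and 1.94 FPKM in the wild-type pair, against 0.72 and 0.74 FPKM in the knockout and did not pass (limma adjusted p = 0.0578). Of 16 tested cytotoxic CD8 markers, 10 fell, 2 rose and 4 did not pass, with a median of -0.60; 2 of the 16, Itgae among the falls and Gzmk, were tested through wild type alone. Prf1, the pore-forming perforin, fell from 233 and 230 to 42.8 and 38.4 FPKM, and Cxcr3, a chemokine receptor, rose from 11.3 and 10.5 to 43.6 and 38.1 FPKM (limma adjusted p = 0.000233 and 0.00112). Falls were thus counted in regulatory, helper and cytotoxic lists, and no test compared the lists. The lists share genes, so these counts are not separate. The fall of Tnfrsf4 was counted as regulatory and helper, and that of Itgae as regulatory and cytotoxic.

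**Figure D4:**
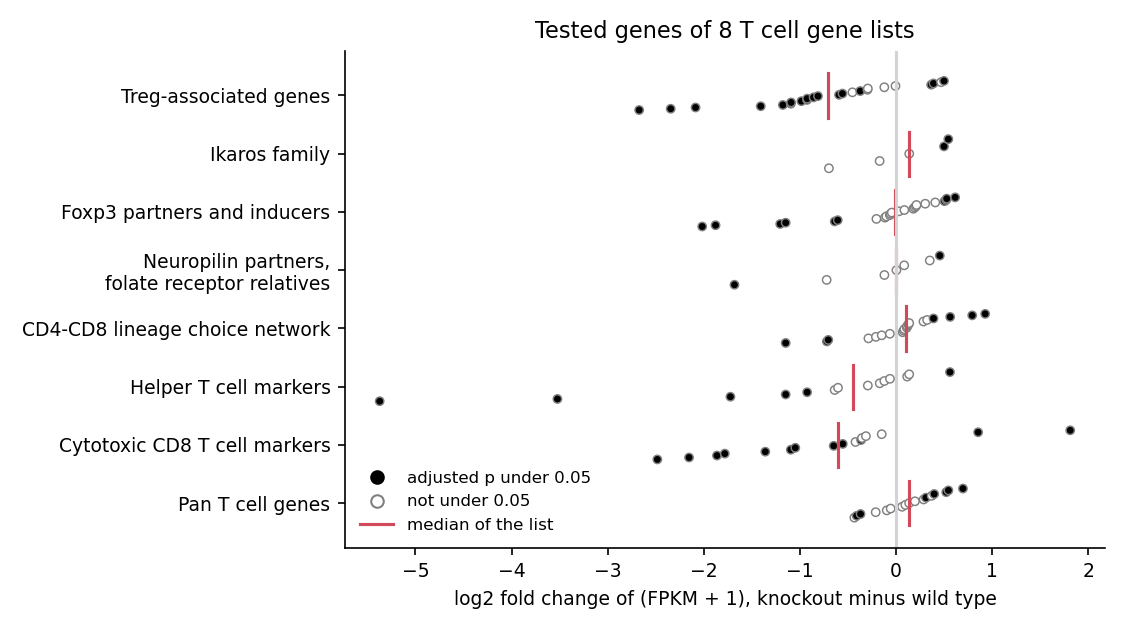
Log2 fold change of FPKM + 1, knockout minus wild type, for the tested genes of 8 T cell lists; filled points passed an adjusted p of 0.05 and the red line is the median. The median is -0.70 for genes of regulatory T cells and 0.14 for the Ikaros family and for genes of all T cells.

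Genes shared by all T cells were at 1 FPKM or more in every library. Of 17 tested, 2 fell and 5 rose, beside 13.0% and 15.4% of all tested genes. The other 10 did not pass, and the median log2 fold change was 0.14. Trac, the alpha chain constant segment, rose from 302 and 322 to 423 and 399 FPKM, while Cd3d fell from 226 and 224 to 171 and 178 FPKM (limma adjusted p = 0.022 and 0.0201). Both calls were lost without either knockout library, that of Trac also without a filter and that of Cd3d also with equal column totals (0.0186 to 0.174 over the alternatives for Cd3d, 0.00736 to 0.177 for Trac).

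Markers of other cells that can express these genes were followed beside them. Counts of calls in these lists stand beside 13.0% lower and 15.4% higher over all tested genes. Of 12 dendritic cell markers 8 were listed, and 3 were tested with no call and a median log2 fold change of -0.23; the list summed to 179 to 201 FPKM in wild type and 187 to 189 FPKM in the knockout, nearly all of it Bst2 and Batf3, which T cells also express. The defining genes were low, and lower in both knockout libraries: Flt3 was at 0.821 and 1.31 FPKM against 0 and 0.0379 FPKM, Zbtb46 at 1.12 and 0.968 against 0.0761 and 0.112 FPKM, and Xcr1 at 0.900 and 0.885 against 0.201 and 0.327 FPKM. They moved in the direction of Nrp1, and their part in its fall was not tested. Of 9 stromal and endothelial markers 1 was tested, with no call (log2 fold change -0.22). Their sum was 13.6 and 20.05 FPKM against 13.5 and 13.1 FPKM, mostly Pecam1. The endothelial gene Cdh5 was at 0 in 1 library of each genotype and at most 0.0398 FPKM. The collagen genes, under the filter, were highest in the second wild-type library. Col1a1 was at 0.477 and 1.65 FPKM in the wild-type pair, against 0.375 and 0.393 FPKM in the knockout, lower in both. Col1a2 was at 0.257 and 1.36 FPKM against 0.357 and 0.270 FPKM, with overlap.

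Macrophage and monocyte markers were low. Of 12 genes, 11 were listed and 1 was tested, with no call (log2 fold change -0.17); the sum was 2.72 to 4.85 FPKM in the 4 libraries, Csf1r was below 1e-08 FPKM in each, and Adgre1 was at most 0.0449 FPKM. Of 8 B cell markers 4 were listed and 1 was tested, with no call (log2 fold change 0.12), and the sum was 4.07 to 5.48 FPKM; Cd79a was at 0 in both wild-type libraries and at 0.149 and 0.0359 FPKM in the knockout. Of 14 NK and innate lymphoid markers 6 were tested, and 4 fell and 1 rose (median -1.03). The 1 that rose was Il18r1, a cytokine receptor chain, whose call was lost without either knockout library and without a filter (limma adjusted p = 0.0116, range 0.00517 to 0.0796). Their sum went from 96.0 and 109 to 44.0 and 47.1 FPKM, led by Fcer1g, and Ncr1, the receptor that defines NK cells, had 0.0767 and 0.0821 FPKM in the wild-type pair and was listed at 0 in both knockout libraries. Of 10 gamma delta T cell markers 5 were tested, and 3 fell and 2 rose (median -0.41). Of the falls, Tcrg-C1, which also sets the median, passed narrowly (limma adjusted p = 0.0477) and under 6 of 14 alternatives (0.0384 to 0.25), and the call was lost without each of the 4 libraries in turn. Of the rises, Cd163l1, was tested through the knockout alone. Their sum went from 55.9 and 63.0 to 37.7 and 35.3 FPKM, with Trdc at 0.943 and 1.04 against 0.332 and 0.571 FPKM.

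Of 9 epithelial and melanocytic markers 3 were tested and 2 fell (median -1.41), 1 of them, Cdh1, tested through wild type alone, with sums of 13.0 and 20.1 against 5.18 and 4.96 FPKM. Epcam, an adhesion gene, fell from 6.64 and 6.94 to 2.02 and 1.86 FPKM while the keratin gene Krt8 was at 0 in 3 libraries. Another keratin gene, Krt5, was at 1.27 and 6.84 FPKM in the wild-type pair, against 1.82 and 1.62 FPKM in the knockout. It was highest in the second wild-type library and did not pass. Of 9 granulocyte and mast cell markers 5 were listed, 2 were tested and both fell (median -2.16), with sums of 11.2 and 11.1 against 1.51 and 0.973 FPKM, most of it Mcpt8 and Kit. Mcpt8 was tested through wild type alone, which favours a fall, and Kit did not pass without a filter (limma adjusted p = 0.0566, range 0.00497 to 0.0566). The part of these cells in the fall of Foxp3, Izumo1r and Nrp1 was not tested.

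The genes whose values were most like those of Foxp3 were named from the root mean square difference of log2(FPKM + 1), centred on each gene's mean, over the 4 libraries. The 5 nearest protein-coding genes were Egr1, an immediate early factor (difference 0.0621), Phlda1 (0.0763), Bcl2a1a, a survival gene with near-identical copies (0.0787), Serpinb6b, a protease inhibitor (0.0836), and Ccdc184 (0.0854). Egr1 was at 31.5 and 30.8 FPKM in the wild-type pair, against 4.98 and 5.19 FPKM in the knockout, and Ccdc184 at 4.60 and 3.51 FPKM against 0.0644 and 0.0622 FPKM. The measure fixes that such genes are lower in the knockout. It also depends on the pseudocount of 1: with 0.1 the log2 fold change was -4.22 for Foxp3 and -4.66 for Ccdc184, but -2.59 for Egr1, -2.94 for Phlda1, -2.61 for Bcl2a1a and -2.35 for Serpinb6b, so 4 of the 5 were not close to Foxp3 on that scale.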

How the data were processed

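Expression was deposited by the authors as FPKM, Ensembl genes in rows and the 4 libraries in columns. HISAT, Cuffnorm and the build GRCm38 appear in the submitters' processing notes; the sources used here give no versions, annotation, strand setting or scaling option. Symbols and positions came from GENCODE M21 for 21028 of 21146 gene IDs. Genes reaching 1 FPKM in 2 or more libraries (11947) were tested on log2(FPKM + 1) with limma 3.58.1 (R 4.3.3), with a mean-variance trend, two-sided, Benjamini-Hochberg adjustment over all tested genes and a call at 0.05. The fit had 2 residual and 3.39 prior degrees of freedom. The script was run on simulated data, where the 200 changed genes were all above the filter in wild type and libraries differed little. That run does not bear on genes near the floor or with a wide spread between libraries. Fragment numbers are approximate: the scale came from steps of low values in single-transcript genes of 1000 to 6000 nt, where 91.7% to 92.9% of low values lay within 0.1 of a whole fragment at a mean fragment length of 260 nt, chosen for the sharpest steps. Promoter windows ran from 250 bases before to 50 after RefSeq start sites. The 10 genes and 16 lists were chosen with earlier results of these data known. From each T cell list the rule named up to 4 called genes with the lowest p, and from each other list the 2 most abundant genes. Alternatives covered pseudocounts, filters, scalings, limma settings, a replicate block and leaving out each library. Tables and plots used Python 3.11.15, pandas 2.3.3 and matplotlib 3.10.9.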

Additional observations from a re-analysis of the deposited data

How the results depend on the processing

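Foxp3 and Izumo1r kept their calls under all 14 alternatives, with log2 fold changes from -4.22 to -2.17 and from -1.60 to -1.28, and Nrp1 under 13. Without any 1 library, 2 to 4 of the 10 genes were called lower and 0 higher, beside 3.26% to 12.9% and 1.58% to 14.2% of tested genes, and 1 (Cd8b1) was called higher with equal column totals. The number of genes called in all was 3390, 1231 without a filter, and 579 to 3235 with a library left out, lowest without knockout replicate 1 (579) and replicate 2 (945). With a replicate block, 2801 genes and the same 3 of the 10 passed; the libraries share only a number (correlation of deviations -0.03), and no blocked call among the 10 differed. Signs turned for Cd3e (0.10) and Runx3 (0.11) with equal totals. With a library left out, Runx3 ran from -0.17 to 0.074, positive without wild-type replicate 1, and Cd68 from -0.45 to 0.11, positive without knockout replicate 2. None of these 3 genes passed under any of the 14 alternatives, and the cause was not tested. Of 644 values of other named genes under alternatives, 603 kept direction and call, 39 lost the call and 2 turned. Many of these genes were named for a low p or for likeness to Foxp3, which favours keeping a call. The 603 also include genes that passed in neither fit. The count is therefore a description and does not measure how calls hold over all genes. About 10 to 22 fragments limit the knockout levels of Foxp3 and Nrp1.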
